A study of Rattus norvegicus with 24 samples.

Results

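The thymus and the spleen of sham-exposed rats were compared by messenger RNA sequencing, as the baseline difference between a primary lymphoid organ, where T cells are made, and a secondary one, where mature lymphocytes meet antigen and old red cells are cleared. The comparison used 6 of the 24 libraries of the series: 3 of Sham thymus and 3 of Sham spleen, chosen by their tissue and treatment labels, from Sprague-Dawley rats aged 7 months. In both tissues the labels number the sham animals 14, 15 and 17. Whether equal numbers mark the same rat is not stated, and the labels give no dose, route or batch. Thymus and spleen of SAM-exposed rats of the same strain and age, animals 1, 3 and 5, are set beside them at the end. The series title calls the exposed rats PCB-exposed. All values are whole-tissue RNA. Sets of 3 values run in the order of animals 14, 15 and 17.

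In the thymus, a scaffold of epithelial cells made under the transcription factor Foxn1 instructs precursors to become T cells. Thymocytes cut and join their receptor genes in the cortex, are selected there, and pass through the medulla, where epithelium displays proteins of other organs, before they leave. The spleen has lymphoid white pulp, rich in B cells, and red pulp, where macrophages take up senescent red cells and recycle their iron. In rats and mice the red pulp also makes some red cells and platelets in adult life.

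Totals were 19.2 to 19.6 M (mega) counts in thymus and 13.3 to 20.1 M in spleen, and the first principal component, with 89.9% of the variance, separated the tissues. The library of thymus 15 stood apart from the other thymus libraries. It held 2624 counts of Ucp1, the uncoupling protein of brown fat, against 2 in each of thymus 14 and 17 and 0 in every spleen library. It also held 881 counts of Pth, parathyroid hormone, against 6 and 1 in thymus 14 and 17 and 0 in every spleen library. Mitochondrially encoded genes took 3.64, 8.18 and 2.95% of counts in thymus 14, 15 and 17, against 3.89, 4.25 and 5.10% in spleen. Globin genes took 0.00786, 0.0244 and 0.00552% in thymus and 6.69, 3.36 and 3.77% in spleen, so that spleen 14 held the most globin. Where leaving out 1 library moved the printed fold of a called gene by over 1.5 times, the value without that library is given too.

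**Figure D1:**
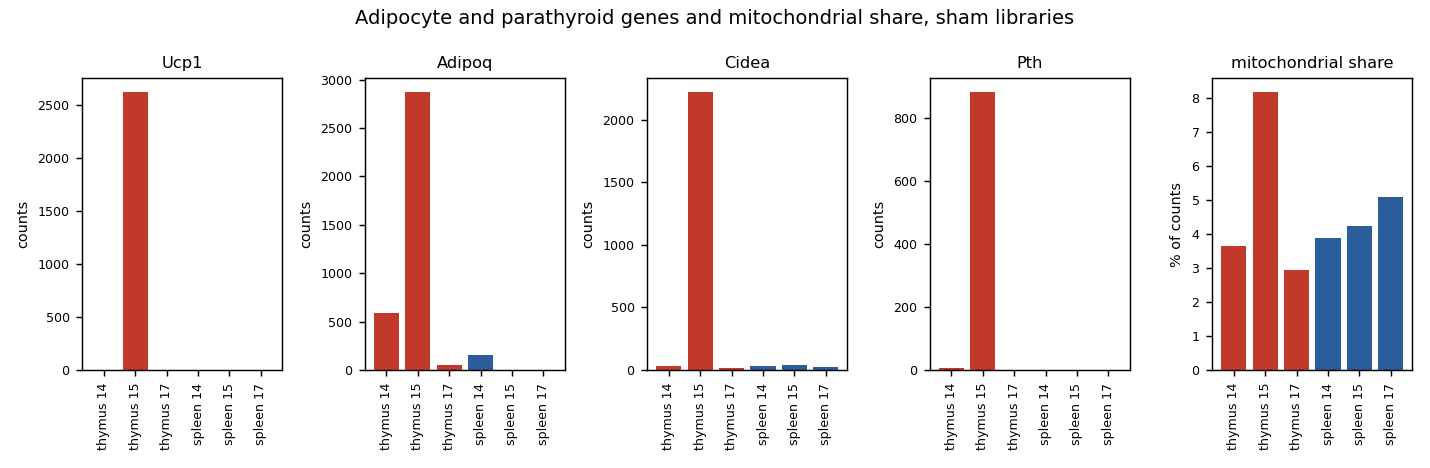
Counts of Ucp1, Adipoq, Cidea and Pth, and the share of counts on mitochondrially encoded genes in percent, for each sham library (thymus in red on the left, spleen in blue on the right). Thymus 15 held 2624 counts of Ucp1, 881 of Pth and 8.18% mitochondrial counts, the highest bar in each panel.

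The tissues differed in most genes measured. Of 15336 genes that passed the low-count filter, 10218 (66.6%) were called by edgeR's quasi-likelihood test at a Benjamini-Hochberg adjusted p under 0.05. Of these, 4980 (32.5% of those tested) were higher and 5238 (34.2%) lower in thymus. Scaled by library totals alone, which moved the median log2 fold change of all genes to 0.17 from -0.01, the calls were 6231 higher and 4259 lower, 59.4% higher against 48.7%. With a change of at least 2-fold required, 2306 genes (15%) were higher and 2929 (19.1%) lower in thymus, 34.1% in all. With library totals alone the 2-fold calls were 2748 higher and 2495 lower, 52.4% higher against 44%. Which direction held more genes thus depended on the scaling, and 8 of the 10218 calls changed sign. The 3 thymus values did not overlap the 3 spleen values for 72.4% of genes, 35.6% higher and 36.8% lower in thymus. These shares are what a gene list has to be read against. Below, a list's count is of members called at 2-fold, the 3 values of a gene are TMM-scaled counts-per-million (CPM), and log2 fold changes are thymus minus spleen. In whole tissue, fewer cells of a type and less RNA per cell cannot be told apart.

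**Figure D2:**
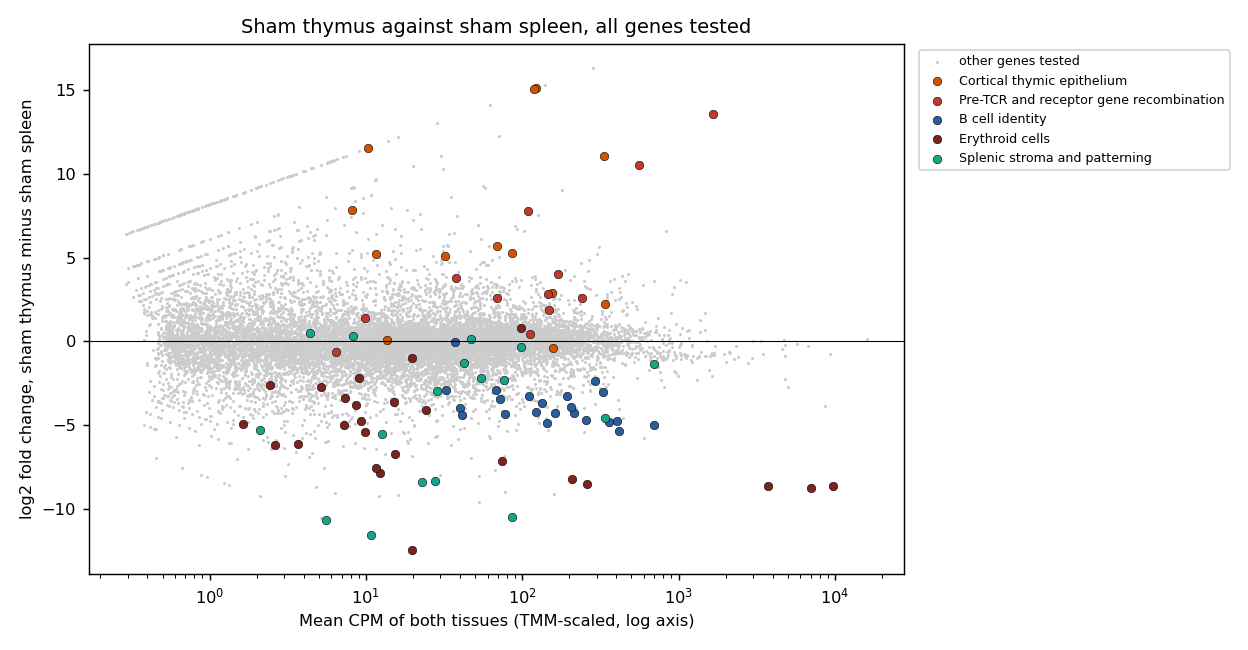
Fitted log2 fold change, sham thymus minus sham spleen, against the mean CPM of both tissues on a log axis, for the 15336 genes tested (grey) and the members of 5 gene lists (coloured). Cortical epithelium and receptor recombination genes lie mostly above 0, and B cell, erythroid and splenic stroma genes mostly below it. Fitted values of genes at 0 in every library of a tissue depend on the prior count and form the slanted line at the upper left.

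Genes of the cortical thymic epithelium were higher in thymus, 11 of 13 at 2-fold and none lower, with a median log2 fold change of 5.26 against -0.01 over all genes. Foxn1 (ENSRNOG00000010870), the master regulator of the thymic epithelium, had 17.8, 16 and 15 CPM in thymus, against 0, 0.104 and 0.0788 CPM in spleen. The spleen values rest on 3 counts in all, and the ratio of thymus to spleen was 251 (95% counting interval 85.5 to 1218), or 438 (78.4 to 17308) without spleen 15. Prss16, the thymus-specific serine protease of cortical epithelium, had 224, 220.4 and 273 CPM in thymus, against 0 CPM in all 3 spleen libraries, at least 1187-fold higher in thymus against a floor of 3 counts per spleen library. Psmb11, the catalytic subunit of the thymoproteasome, had 19.5, 20.5 and 22.2 CPM in thymus, against 0 CPM in all 3 spleen libraries (at least 103-fold). The chemokine Ccl25, which draws precursors carrying the receptor Ccr9, had 229, 273 and 236 CPM in thymus, against 0 CPM in all 3 spleen libraries (at least 1222-fold). None of the 3 genes gave a read in any spleen library.

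Tbata, a gene named for its expression in thymus, brain and testis, had 731, 648 and 636 CPM in thymus, against 0.353, 0.363 and 0.158 CPM in spleen, a log2 fold change of 11.08 ± 0.18 (SE, edgeR adjusted p = 4.42e-08). Ctsl, a lysosomal protease that cuts proteins for display on MHC class II, was detected in both tissues and was 4.6-fold higher in thymus (528, 559 and 581 CPM in thymus, against 134, 121 and 108 CPM in spleen). Pax1, a patterning factor of the pharyngeal pouch, had 59.3, 63 and 64.9 CPM in thymus, against 0.0706, 1.82 and 3.7 CPM in spleen. Its 3 spleen libraries spread widely but stayed below every thymus library. The exceptions were Dll4, the Notch ligand of cortical epithelium, and Cd83, which stabilises MHC class II. Dll4 had 14, 15.2 and 13.4 CPM in thymus, against 14.1, 13 and 12.6 CPM in spleen, overlapping between the tissues, with a log2 fold change of 0.1 ± 0.11 (SE, edgeR adjusted p = 0.466). Cd83 was lower in thymus at -0.43 (adjusted p = 0.0086), less than 2-fold, and the call was lost with library totals alone and in 1 fit of all 12 thymus and spleen libraries (adjusted p = 0.0523).

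Promoters of the cortical list, whether or not a gene was higher in thymus, were read on both strands for the letters GACGC. This is the core bound by Foxn1 in mouse. Of the 13 cortical genes, 11 had a promoter in the RefSeq table of build GRCr8 (250 bases before to 50 after the start), and 6 of these (54.5%) held GACGC, against 27.3% of all 27457 promoters. The genes of T lineage transcription factors, which are no epithelial set, held it as often (6 of 11, 54.5%). A match of 5 letters is a description, not a binding site. The 6 cortical matches included Cd83, which was lower in thymus. Foxn1, Psmb11 and Ccl25 were not among the 6, each for lack of a match or of a promoter in the RefSeq table. The promoters of Prss16 (chr17:47209831-47210130, plus strand) and Tbata (chr20:29663274-29663573, plus strand) are shown. They were picked from the 6 with a match, and both genes had 0 to 0.363 CPM in spleen. Capitals mark GACGC or its reverse complement GCGTC. The other motifs searched were GATAA and CAGGTG, an E-box of E-proteins, and neither overlaps a marked stretch. Tbata also holds CAGGTG, which is left unmarked.
Prss16: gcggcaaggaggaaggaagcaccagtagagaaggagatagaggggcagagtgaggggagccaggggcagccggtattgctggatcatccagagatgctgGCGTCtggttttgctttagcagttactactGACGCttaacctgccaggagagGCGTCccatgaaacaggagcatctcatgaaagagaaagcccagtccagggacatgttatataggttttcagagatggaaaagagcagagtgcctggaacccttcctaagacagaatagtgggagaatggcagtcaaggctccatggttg
Tbata: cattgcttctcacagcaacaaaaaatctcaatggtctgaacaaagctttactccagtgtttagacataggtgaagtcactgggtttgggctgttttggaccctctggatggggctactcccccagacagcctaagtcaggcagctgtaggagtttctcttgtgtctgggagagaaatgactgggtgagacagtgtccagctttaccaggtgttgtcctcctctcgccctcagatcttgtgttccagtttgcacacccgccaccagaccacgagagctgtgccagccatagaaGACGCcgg
Prss16 held 3 matches, all upstream of the start, and Tbata 1, at its 3′ end downstream of the start. Prss16 is the gene with no read in the 3 spleen libraries, and Tbata the one with 0.158 to 0.363 CPM there.

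Genes of the medullary and other thymic epithelium followed the same direction, 14 of 18 higher at 2-fold and none lower (median 4.7, or 4.04 with genes at 0 in spleen set to their lower bound). Krt5 (ENSRNOG00000050420), a basal keratin, had 582, 584 and 539.5 CPM in thymus, against 0 CPM in all 3 spleen libraries, at least 2826-fold higher. Its partner Krt14 had 148, 137 and 143 CPM in thymus, against 0, 0 and 0.0788 CPM in spleen, with 1 spleen count in all and a ratio of 6580.0 (95% counting interval 1181 to 259924). Without spleen 15 this ratio was 3830.0 (687 to 151295), and without spleen 17, which held the count, Krt14 was at least 776-fold higher. Krt17 was at least 617-fold higher (115, 116 and 142 CPM in thymus). Krt15 varied more than these among the thymus libraries (48, 108 and 15.7 CPM) and was at 0 in spleen.

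The regulators that let medullary epithelium express genes of other organs were low but clearly separated. Aire had 5.63, 6.39 and 7.17 CPM in thymus, against 0.494, 0.622 and 0.315 CPM in spleen, a log2 fold change of 3.68 ± 0.27 (SE, edgeR adjusted p = 1.03e-05). Fezf2, which acts beside Aire, had 6.96, 5.58 and 7.6 CPM in thymus, against 0 CPM in all 3 spleen libraries (at least 33.4-fold). Tp63, the regulator of basal epithelium, was 79-fold higher, and the adhesion molecule Epcam 41.4-fold. Pou2f3, the factor of tuft cells, had 1.53, 1.46 and 1.48 CPM in thymus, against 0.0706, 0.207 and 0.0788 CPM in spleen, a log2 fold change of 3.46 ± 0.4 (SE, edgeR adjusted p = 0.00012), or 4.19 without spleen 15. Trpm5, the tuft cell ion channel, had 0.858, 0.553 and 0.383 CPM in thymus, against 0.847, 0.726 and 0.788 CPM in spleen and did not pass (adjusted p = 0.376).

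Some hormones of other organs were counted in thymus at low levels. Sst, somatostatin, had 1.48, 1.66 and 2.2 CPM in thymus, against 0 CPM in all 3 spleen libraries, at least 8.84-fold higher. Gcg, glucagon, had 10, 18 and 11 counts in thymus and 0 in each spleen library, and Ins2, insulin, had 3, 6 and 10 counts in thymus and 0 in each spleen library. Both fell under the low-count filter and were not tested. Calca, calcitonin, had 1.72, 0.956 and 1.48 CPM in thymus, against 0.0706, 0.0519 and 0 CPM in spleen, a ratio of 32.1 (95% counting interval 8.62 to 269) from 2 spleen counts. Digestive enzymes of the exocrine pancreas did not share this direction: Cela1 had 1.34, 1.41 and 2.2 CPM in thymus, against 8.33, 7.37 and 6.38 CPM in spleen and Ctrb1 0.715, 0.654 and 1.24 CPM in thymus, against 6.35, 2.85 and 3.86 CPM in spleen, both lower in thymus. Of 6 pancreas genes tested, 1 was higher and 2 lower at 2-fold. Among 6 muscle genes 2 were higher and 2 lower, the higher being Myog, a myogenic factor (1.34, 1.21 and 1.0 CPM in thymus, against 0.141, 0.311 and 0.236 CPM in spleen), and Mylpf, a fast muscle myosin light chain (2.64).

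**Figure D3:**
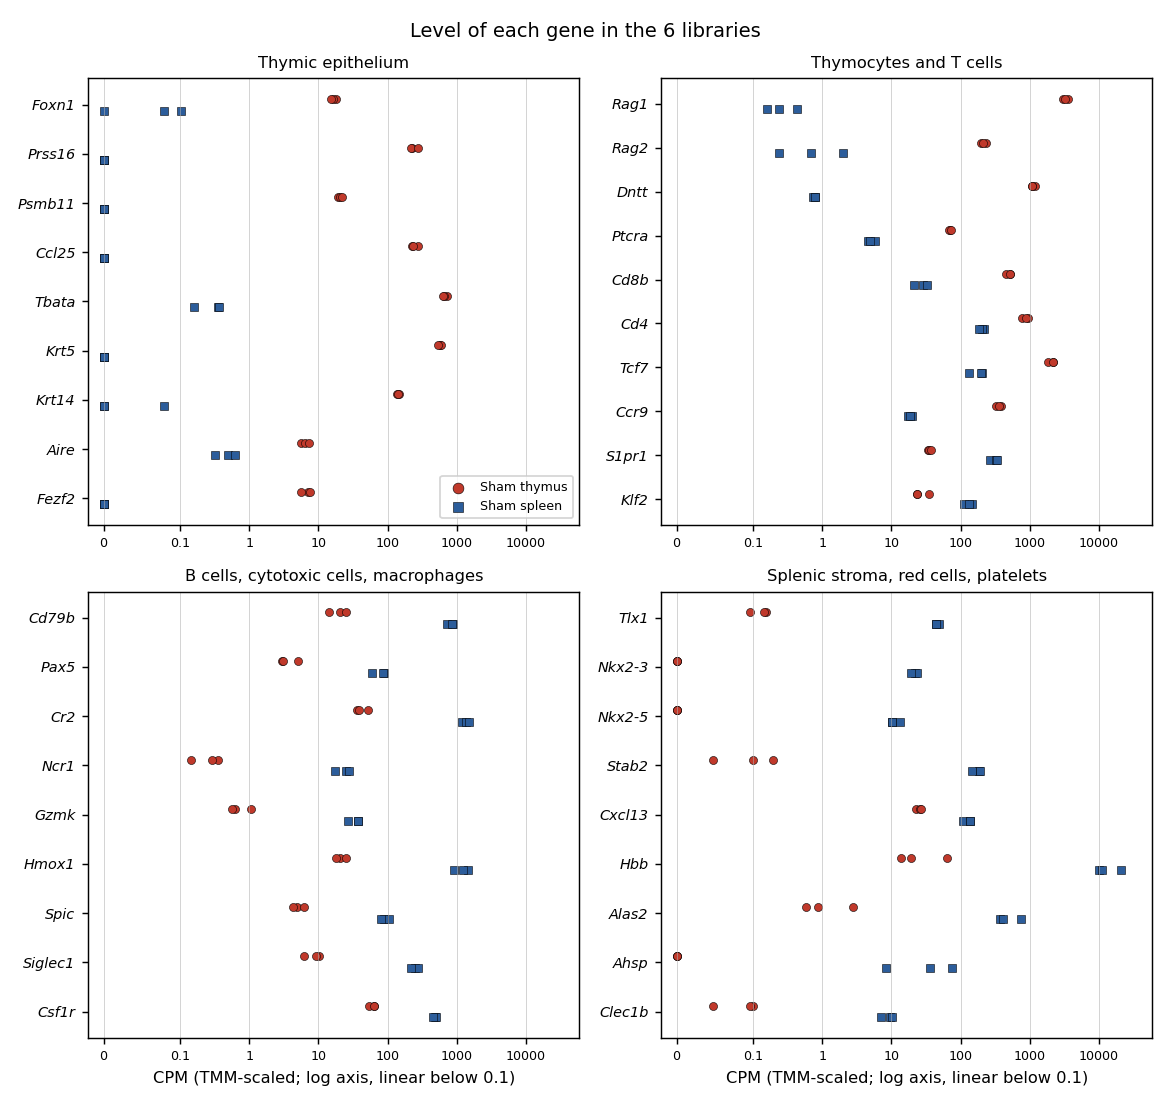
CPM of 37 genes in each sham library, thymus as red circles and spleen as blue squares, on an axis that is logarithmic above 0.1 CPM and linear below it. For every gene drawn the 3 thymus values lie on one side of the 3 spleen values, from Krt5 (540 to 584 CPM in thymus, 0 in spleen) to Nkx2-3 (0 CPM in thymus, 19.2 to 23.1 in spleen).

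Genes of receptor gene recombination were higher in thymus for 10 of 12 members at 2-fold, and 0 were lower (median 2.71). Rag1 (ENSRNOG00000004630), which cuts the receptor genes, had 3647, 3060.3 and 3210.0 CPM in thymus, against 0.424, 0.156 and 0.236 CPM in spleen, a log2 fold change of 13.59 ± 0.22 (SE, edgeR adjusted p = 4.42e-08). Its partner Rag2 had 237, 199 and 210.0 CPM in thymus, against 1.98, 0.674 and 0.236 CPM in spleen. Dntt, the polymerase that adds untemplated bases at the joins, had 1210.0, 1068 and 1096 CPM in thymus, against 0.777, 0.726 and 0.788 CPM in spleen, a log2 fold change of 10.52 ± 0.12 (SE, edgeR adjusted p = 1.28e-08). Each of these 3 genes was at or under 1.98 CPM in every spleen library, where Rag1 rested on single-figure counts. Ptcra, the surrogate alpha chain of the pre-T cell receptor, had 69.3, 68.4 and 71.9 CPM in thymus, against 4.52, 5.81 and 4.96 CPM in spleen, a smaller difference (13.6-fold). The end-joining factors were less separated. Lig4, the ligase of the join, was at 2.6 and the nuclease gene Dclre1c at 2.81, while the kinase gene Prkdc was at 0.42, under 2-fold. Nhej1, an end-joining cofactor, was lower in thymus at -0.67 (adjusted p = 0.00925).

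T lineage transcription factors were higher in thymus for 10 of 17 members at 2-fold, with none lower (median 2.49). Tcf7, which starts the T cell program, had 2205, 1853 and 2154 CPM in thymus, against 134, 202 and 197 CPM in spleen, a log2 fold change of 3.54 ± 0.18 (SE, edgeR adjusted p = 1.62e-06). Satb1, a chromatin organiser of thymocytes, had 1849.8, 1847 and 1968 CPM in thymus, against 115, 159 and 171 CPM in spleen, and Bcl11b, which locks in T cell fate, had 434, 462 and 499 CPM in thymus, against 44.1, 52.3 and 58.5 CPM in spleen. Myb was 25.6-fold higher (506, 424 and 434 CPM in thymus, against 19.2, 16.6 and 17.5 CPM in spleen). Factors of the CD4 and CD8 lineage choice went the other way: Zbtb7b, which directs CD4 fate, was at -0.88 (28.8, 33.5 and 36.9 CPM in thymus, against 59.2, 64 and 59.4 CPM in spleen). Runx3, which directs CD8 fate, was at -0.42 (adjusted p = 0.0112), a call lost with library totals alone, without thymus 14, or without both thymus 15 and spleen 14 (adjusted p = 0.0807).

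The T cell receptor complex and its proximal signalling genes were higher in thymus for 19 of 22 members at 2-fold, and 0 were lower (median 2.58). Cd8a had 1309, 1278 and 1267 CPM in thymus, against 74.8, 111 and 129 CPM in spleen and Cd8b 515, 454 and 525 CPM in thymus, against 21.5, 28.8 and 32.3 CPM in spleen, 12.2- and 18.1-fold higher, while Cd4 was 4.32-fold higher (939.5, 789 and 894 CPM in thymus, against 219, 204 and 184 CPM in spleen). The signalling subunits Cd3d, Cd3e, Cd3g and Cd247 lay between 2.49 and 3.11 on the log2 scale. Themis, a signalling protein needed for thymic selection, was at 3.6 and the kinase Lck at 2.81. Fyn, the other Src-family kinase of the list, had 196, 188 and 215 CPM in thymus, against 202, 184 and 199 CPM in spleen, overlapping, with a log2 fold change of 0.03 ± 0.08 (SE, edgeR adjusted p = 0.723). Thy1 and Trbc2, named for their difference in CPM and not as list members, had 1826, 1478 and 1668 CPM in thymus, against 17.3, 15.5 and 18.4 CPM in spleen and 1662, 1649 and 1745 CPM in thymus, against 158, 184 and 199.6 CPM in spleen. Thy1 is the classic thymocyte surface glycoprotein and Trbc2 a constant region of the receptor's beta chain.

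Early thymocyte and Notch genes did not follow, with 1 of 13 higher and 6 lower in thymus at 2-fold (median -0.84). The receptors Notch1 and Notch3 were higher by 0.42 and 0.44, under 2-fold. The Notch-responsive genes Hes1 and Dtx1 were lower: Hes1 had 18.7, 16.5 and 13.5 CPM in thymus, against 47.6, 41 and 40.7 CPM in spleen, and Dtx1 9.35, 3.57 and 5.36 CPM in thymus, against 66.8, 60.0 and 56.7 CPM in spleen, a log2 fold change of -3.32 ± 0.3 (SE, edgeR adjusted p = 3.26e-05). Factors of stem and early progenitor cells were lower as well, Lyl1 at -3.12 (5.67, 7.44 and 5.55 CPM in thymus, against 55.6, 57.4 and 48.9 CPM in spleen) and Hhex at -3.3 (6.82, 6.94 and 6.84 CPM in thymus, against 61.4, 70.1 and 70.8 CPM in spleen). Cd34, a progenitor and endothelial surface protein, was the member higher at 2-fold (15, 15.7 and 10.2 CPM in thymus, against 4.52, 2.85 and 2.99 CPM in spleen). These genes are also used by B cells, endothelium or myeloid cells, whose markers were higher in spleen, and the part of those cells in the values was not tested.

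Genes of T cell maturation and exit were split, 2 of 11 higher and 4 lower in thymus at 2-fold. S1pr1, the receptor by which mature thymocytes leave, had 33.6, 34.6 and 37.1 CPM in thymus, against 267, 321 and 338 CPM in spleen, a log2 fold change of -3.14 ± 0.11 (SE, edgeR adjusted p = 3.84e-07). Klf2, which switches S1pr1 on, had 23.3, 23.8 and 34.4 CPM in thymus, against 111, 146 and 135 CPM in spleen. Both were lower in every thymus library than in any spleen library. The part in these values of B cells and endothelium, whose markers were higher in spleen, was not tested. Ccr9, the receptor for Ccl25, had 387, 328 and 357 CPM in thymus, against 17.2, 19.7 and 18.8 CPM in spleen, a log2 fold change of 4.27 ± 0.1 (SE, edgeR adjusted p = 1.19e-07). Ccr4, a receptor of cells entering the medulla, was 3.74-fold higher. The naive-cell receptor Ccr7 had 60.8, 71.2 and 99.5 CPM in thymus, against 73.6, 107 and 97.9 CPM in spleen, overlapping between the tissues (adjusted p = 0.269).

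Effector and memory T cell genes were lower in thymus for 10 of 12 members and higher for 0 at 2-fold (median -2.32). Natural killer and cytotoxic genes were lower as well (12 of 15), and the part of those cells in these values was not tested. Gzmk, a granzyme, had 0.62, 0.553 and 1.05 CPM in thymus, against 37.6, 26.9 and 37.9 CPM in spleen. The chemokine Ccl5 had 2.43, 2.51 and 1.82 CPM in thymus, against 92.4, 67.1 and 87 CPM in spleen, a log2 fold change of -5.18 ± 0.18 (SE, edgeR adjusted p = 3.86e-07), and the factors Tbx21 and Eomes were at -4.06 and -4.42. Il21r had the opposite direction, 479, 414 and 458 CPM in thymus, against 205, 239 and 234 CPM in spleen, and its log2 fold change of 0.995 fell just short of 2-fold. In regulatory T cell genes 3 of 8 were higher and 1 lower at 2-fold. Foxp3, their defining factor, had 11.3, 11.2 and 16.5 CPM in thymus, against 9.81, 8.77 and 10.2 CPM in spleen, higher in each thymus library but not called (adjusted p = 0.0638). Ikzf2, the factor Helios, had 31.5, 36.4 and 39.8 CPM in thymus, against 4.66, 5.96 and 5.99 CPM in spleen and Ctla4, an inhibitory receptor, 13.8, 16.9 and 16.3 CPM in thymus, against 4.17, 2.85 and 3.15 CPM in spleen, both called higher. Il2rb, the interleukin 2 receptor beta chain, shared with natural killer cells, was lower (-1.64).

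Cell cycle genes were higher in thymus for 32 of 33 members at 2-fold, with 0 lower (median 2.99, a fold of 7.93). Top2a, a topoisomerase of dividing cells, had 956, 889 and 827 CPM in thymus, against 70.3, 51.7 and 42.7 CPM in spleen, a log2 fold change of 4.02 ± 0.19 (SE, edgeR adjusted p = 1.2e-06). Mki67 had 952, 829.6 and 758 CPM in thymus, against 102, 61.2 and 42.6 CPM in spleen, highest in thymus 14 and in spleen 14. Mitotic genes such as Bub1 (3.91) and Cenpf (3.83) had larger log2 fold changes than the replication genes Mcm2 (1.72), Pcna (1.79) and Rrm1 (1.72). Mcm3, a subunit of the same helicase as Mcm2, was the exception with 202, 189 and 190.2 CPM in thymus, against 192, 219 and 215 CPM in spleen, overlapping. Of the BCL2 family, which sets survival, 3 of 11 were higher and 1 lower at 2-fold. Bcl2l1, the survival gene of double-positive thymocytes in mouse, had 169.8, 178 and 169.5 CPM in thymus, against 41.9, 32.7 and 31.9 CPM in spleen, a log2 fold change of 2.28 ± 0.11 (SE, edgeR adjusted p = 1.53e-06), and the death genes Pmaip1 and Bcl2l11 were 3.28- and 2.04-fold higher. Bcl2a1 was lower (30.2, 30.8 and 34.5 CPM in thymus, against 90.5, 74.1 and 80.9 CPM in spleen). The death receptor gene Fas was 9.28-fold higher in thymus (122, 133 and 137 CPM in thymus, against 18.4, 13.7 and 9.93 CPM in spleen).

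**Figure D4:**
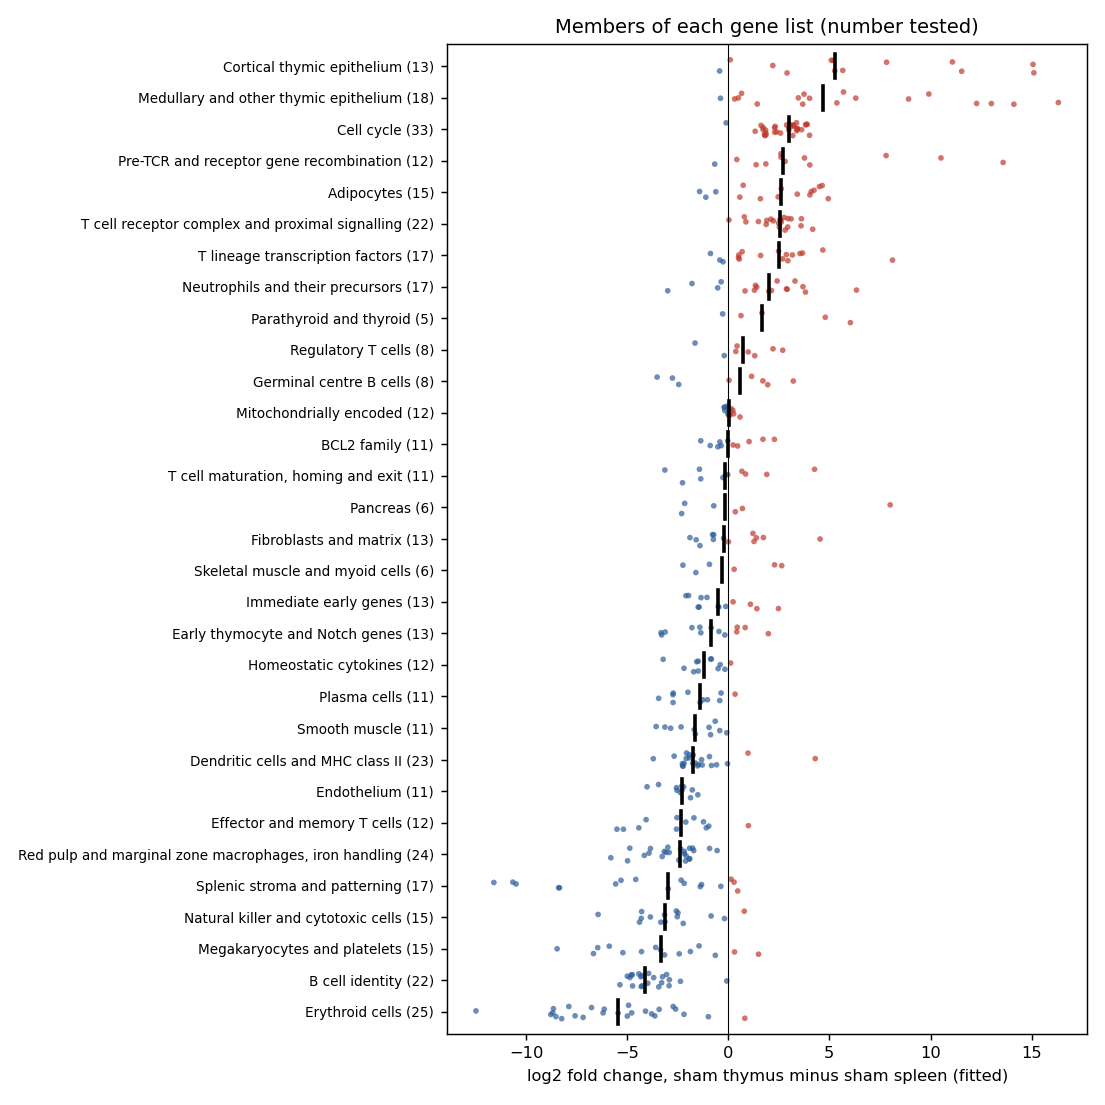
Fitted log2 fold change of each tested member of 31 gene lists, sham thymus minus sham spleen, with red points above 0 and blue points below it. Black bars are list medians and numbers in brackets the members tested. Medians run from 5.26 for cortical epithelium to -5.45 for erythroid genes.

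B cell identity genes were lower in thymus for 21 of 22 members, with 0 higher (median -4.12, a fold of 17.4). Cd79b, a B cell receptor subunit, had 14.1, 20.4 and 24.8 CPM in thymus, against 714, 876 and 844 CPM in spleen, a log2 fold change of -5.36 ± 0.22 (SE, edgeR adjusted p = 6.97e-07), and Cr2, the complement receptor of marginal zone and follicular cells, had 36.3, 39.1 and 51.3 CPM in thymus, against 1186, 1364 and 1487 CPM in spleen. The lineage factor Pax5 was at -4.42 (2.96, 3.07 and 4.97 CPM in thymus, against 60.2, 88.8 and 87.2 CPM in spleen). Ighm, the immunoglobulin mu chain, had 1158, 1136 and 1049.9 CPM in thymus, against 20038, 14243 and 13936 CPM in spleen. Bach2, a factor also used by T cells, overlapped between the tissues (32.3, 31.7 and 45.3 CPM in thymus, against 29.7, 43.7 and 41.7 CPM in spleen). All of these markers were above 0 in thymus, at 2.96 CPM (Pax5, thymus 14) or more.

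Plasma cell genes were lower for 8 of 11 members at 2-fold, among them Jchain, which links IgM and IgA units (273, 199 and 165 CPM in thymus, against 1903, 1208 and 1088 CPM in spleen), and Mzb1, an antibody-folding chaperone (-3.44). Germinal centre genes were split, 4 higher and 3 lower of 8 at 2-fold. Rgs13 and Mef2b, marker and factor of germinal centre B cells, were lower (-3.52, or -4.36 without thymus 14, and -2.76). Bcl6, which is also expressed by thymocytes, had 216, 191 and 223 CPM in thymus, against 57.8, 53.5 and 51.6 CPM in spleen, a log2 fold change of 1.95 ± 0.09 (SE, edgeR adjusted p = 1.04e-06).

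Red pulp and marginal zone macrophage genes and genes of iron handling were lower in thymus for 22 of 24 members and higher for 0 (median -2.4). Hmox1, which opens the haem ring, had 20.7, 18.1 and 24.9 CPM in thymus, against 1441, 1217 and 913 CPM in spleen, a log2 fold change of -5.81 ± 0.22 (SE, edgeR adjusted p = 4.9e-07). Spic, the factor that makes red pulp macrophages, had 4.96, 4.32 and 6.12 CPM in thymus, against 104, 89 and 81.5 CPM in spleen. Slc40a1, the iron exporter ferroportin, was at -3.85 for the entry tested, and its other entry (ENSRNOG00000049995) had 0 counts in every library. Siglec1, the sialoadhesin of marginal metallophilic macrophages, had 10.1, 9.35 and 6.07 CPM in thymus, against 251, 273 and 221 CPM in spleen. Marco, a scavenger receptor of the marginal zone, had 0.0477, 0.453 and 0.0478 CPM in thymus, against 6.21, 7.78 and 3.47 CPM in spleen. Of genes shared by most macrophages, the growth factor receptor Csf1r was at -2.99, the phagosome protein Cd68 at -1.92 and Adgre1, which encodes F4/80, at -0.93.

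Erythroid genes had the lowest list median in thymus, -5.45, and 23 of 25 members were lower and 0 higher at 2-fold. Hbb (ENSRNOG00000058105), the beta-globin gene, had 18.9, 63.8 and 13.6 CPM in thymus, against 20962, 9949.7 and 11228 CPM in spleen, a log2 fold change of -8.78 ± 0.77 (SE, edgeR adjusted p = 2.74e-05), or -9.71 without thymus 15. Alas2, which starts haem synthesis in red cell precursors, had 0.858, 2.82 and 0.574 CPM in thymus, against 759.9, 376 and 414 CPM in spleen. Klf1, the erythroid regulator, had 0.381, 0.402 and 0.526 CPM in thymus, against 24, 11.6 and 6.7 CPM in spleen, a log2 fold change of -4.99 ± 0.54 (SE, edgeR adjusted p = 8.85e-05), or -4.38 without spleen 14. Ahsp, the alpha-globin chaperone, had 0 CPM in all 3 thymus libraries, against 74.6, 35.7 and 8.27 CPM in spleen, at least 271-fold lower in thymus, or at least 151-fold without spleen 14. The alpha-globin genes Hba-a2 are 2 entries of the table at -8.67 and -8.65 (-9.57 and -9.47 without thymus 15), and how reads of such copies were shared is not given in the sources used here. Every one of the 25 members was highest in spleen 14 among the spleen libraries, and without thymus 15 and spleen 14 the list median was -4.39, with 23 members still lower and 1, the transferrin receptor Tfrc, higher at 2-fold. Tfrc, used by all dividing cells, had 146, 114 and 117 CPM in thymus, against 90.8, 66.6 and 56.1 CPM in spleen. Gata1 had 0 counts in all 6 libraries, as did the listed genes Gp1bb, Gp5 and Derl3 and an untested entry of Slc40a1. Whether these zeros come from the tissues or from how reads were counted was not tested.

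The letters GATAA, the core bound by GATA factors, stood on either strand in 10 of the 18 erythroid promoters found (55.6%), against 26.1% of all promoters in the table, and in 1 of 11 cortical epithelium promoters (9.09%). The promoters of Alas2 (chrX:22895200-22895499, plus strand) and Klf1 (chr19:40158602-40158901, minus strand), both RefSeq GRCr8, are shown. They were picked from the 10 with a match, as an enzyme and a regulator at or below 2.82 CPM in thymus. Capitals mark GATAA or its reverse complement TTATC, which overlap no other motif searched.
Alas2: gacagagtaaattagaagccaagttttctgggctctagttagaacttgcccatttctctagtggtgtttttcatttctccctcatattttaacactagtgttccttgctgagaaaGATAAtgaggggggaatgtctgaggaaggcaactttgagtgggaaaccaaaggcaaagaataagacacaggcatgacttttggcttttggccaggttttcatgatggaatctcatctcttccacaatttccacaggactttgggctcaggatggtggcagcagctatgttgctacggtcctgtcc
Klf1: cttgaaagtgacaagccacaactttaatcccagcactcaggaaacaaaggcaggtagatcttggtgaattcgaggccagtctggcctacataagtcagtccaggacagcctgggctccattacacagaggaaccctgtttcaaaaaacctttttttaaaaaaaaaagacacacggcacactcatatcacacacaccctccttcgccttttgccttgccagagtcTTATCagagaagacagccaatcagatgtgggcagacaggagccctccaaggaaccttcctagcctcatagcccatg
Each held 1 match, upstream of the start.

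Megakaryocyte and platelet genes were lower for 12 of 15 members at 2-fold (median -3.34). Clec1b, a platelet receptor, had 0.0477, 0.101 and 0.0956 CPM in thymus, against 9.67, 7.05 and 10.1 CPM in spleen, and Gp9, part of the receptor for von Willebrand factor, 0.0477, 0.201 and 0 CPM in thymus, against 5.15, 5.24 and 5.2 CPM in spleen. Vwf itself, made by endothelium and megakaryocytes, was the member that was higher at 2-fold, with 114, 110.1 and 122 CPM in thymus, against 39, 44.9 and 38.7 CPM in spleen, a log2 fold change of 1.5 ± 0.08 (SE, edgeR adjusted p = 2.63e-06). Endothelial genes went the other way from Vwf, with 11 of 11 lower at 2-fold (median -2.3), led by Plvap, a protein of fenestrated vessels (26.2, 26.2 and 24.3 CPM in thymus, against 436, 432 and 373 CPM in spleen), and Kdr, a receptor of vascular endothelial growth factor (-3.45).

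Splenic stroma and patterning genes were lower for 13 of 17 members and higher for 0 at 2-fold (median -2.97). Tlx1, the homeobox gene needed to form a spleen in mouse, had 0.0954, 0.151 and 0.143 CPM in thymus, against 43.6, 48.8 and 44.8 CPM in spleen, a log2 fold change of -8.39 ± 0.17 (SE, edgeR adjusted p = 8.33e-08). Nkx2-3 had 0 CPM in all 3 thymus libraries, against 22, 23.1 and 19.2 CPM in spleen (at least 147-fold lower), and Nkx2-5 0 CPM in all 3 thymus libraries, against 13.1, 10.3 and 10.2 CPM in spleen (at least 76.7-fold lower). Tcf21, a factor of visceral mesenchyme, had 0, 0.402 and 0.0956 CPM in thymus, against 61.4, 54.8 and 48.5 CPM in spleen, and Stab2, a scavenger receptor of sinus endothelium, 0.0477, 0.101 and 0.191 CPM in thymus, against 183, 189 and 148 CPM in spleen. The B cell chemokine Cxcl13 was lower (22.9, 26.2 and 27.2 CPM in thymus, against 109.6, 137 and 136 CPM in spleen), as was Ccl21 (-1.39), which draws naive T cells. Ccl19, its partner at the receptor Ccr7, overlapped (34.3, 42.7 and 70.7 CPM in thymus, against 53.3, 38.6 and 42.2 CPM in spleen). Coch, a gene of the spleen's follicular stroma in mouse, had 14.7, 61.8 and 4.88 CPM in thymus, against 741, 646 and 550.0 CPM in spleen, highest among thymus libraries in thymus 15.

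Smooth muscle genes were lower for 6 of 11 members at 2-fold, such as the intermediate filament Des (23.1, 20.1 and 25.8 CPM in thymus, against 118, 129 and 102 CPM in spleen). Fibroblast and matrix genes were split, 5 higher and 3 lower of 13. Dcn, the proteoglycan decorin, had 138, 124 and 86.1 CPM in thymus, against 12, 2.07 and 1.1 CPM in spleen, a log2 fold change of 4.54 ± 0.66 (SE, edgeR adjusted p = 0.000454), or 6.11 without spleen 14. The growth factor receptors Pdgfra and Pdgfrb were lower (-1.9 and -1.59), while Postn, a matricellular protein, was higher (1.39). Homeostatic cytokines were lower for 6 of 12 members and higher for 0: Csf1, which keeps macrophages alive, had 15.5, 13.9 and 13.7 CPM in thymus, against 178, 113 and 112 CPM in spleen, and Tnfsf13b, the B cell survival factor BAFF, 4.29, 3.47 and 4.26 CPM in thymus, against 20.1, 18.3 and 16.5 CPM in spleen. Il7, which both organs use to keep T cells alive, overlapped (9.25, 8.55 and 8.32 CPM in thymus, against 9.18, 9.49 and 10.6 CPM in spleen).

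Natural killer and cytotoxic genes were lower for 12 of 15 members at 2-fold (median -3.13). Ncr1, a receptor used mainly by natural killer cells, had 0.143, 0.352 and 0.287 CPM in thymus, against 24.7, 17.3 and 27.3 CPM in spleen, a log2 fold change of -6.44 ± 0.31 (SE, edgeR adjusted p = 1.44e-06), and the granzyme Gzmm was at -4.39. Dendritic cell and MHC class II genes were lower for 17 of 23 members and higher for 1. Cd74, the invariant chain, had 1424, 1603 and 1908 CPM in thymus, against 7556, 8445 and 7742 CPM in spleen, and Siglech, of plasmacytoid dendritic cells, 1.1, 1.86 and 1.39 CPM in thymus, against 19.8, 17.3 and 19.9 CPM in spleen. RT1-Da, a rat class II chain, was at -2.08 and Ciita, which switches class II genes on, at -2.68. The cross-presenting cell marker Xcr1 was at -0.58, under 2-fold. The member higher was Ccl22, the chemokine for Ccr4, with 74.8, 81.1 and 133 CPM in thymus, against 5.86, 4.72 and 4.02 CPM in spleen, a log2 fold change of 4.3 ± 0.27 (SE, edgeR adjusted p = 4.47e-06). Like Ccl22, its receptor was higher in thymus.

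Of 17 neutrophil genes, 12 were higher and 2 lower in thymus at 2-fold (median 2.0). Among granule proteins, Ltf, lactoferrin, had 9.35, 9.3 and 9.33 CPM in thymus, against 0.141, 0.104 and 0.0788 CPM in spleen, a log2 fold change of 6.34 ± 0.25 (SE, edgeR adjusted p = 6.1e-07), Mpo, myeloperoxidase, 34.9, 30.2 and 19 CPM in thymus, against 7.27, 2.13 and 2.13 CPM in spleen and Camp, a cathelicidin, 16.2, 10.3 and 9.33 CPM in thymus, against 4.59, 1.3 and 0.867 CPM in spleen. The calcium-binding S100a8 and S100a9 were at 2.0 and 1.41, and Mmp9, which other cells also make, at 3.69. The 2 lower members were surface receptors. Csf3r, the receptor for granulocyte colony-stimulating factor, had 4.86, 3.32 and 5.4 CPM in thymus, against 39, 32.4 and 37.1 CPM in spleen, and the chemokine receptor Cxcr2 3.19, 2.31 and 2.68 CPM in thymus, against 11.2, 8.87 and 8.43 CPM in spleen. Cebpe, the factor of late granule genes, overlapped (0.62, 0.654 and 0.909 CPM in thymus, against 1.27, 0.882 and 0.63 CPM in spleen).

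Immediate early genes, which respond within minutes to handling and to receptor signals, were also split, 3 higher and 6 lower of 13 at 2-fold. Nr4a1, a gene induced by T cell receptor signals, had 81.7, 71.2 and 96.7 CPM in thymus, against 29.2, 31.8 and 32.7 CPM in spleen, and Egr2, another such target, 21.9, 20.7 and 25.2 CPM in thymus, against 4.31, 3.42 and 4.49 CPM in spleen. Both were higher in thymus, whereas Fos (12.6, 3.52 and 4.88 CPM in thymus, against 30.8, 23.5 and 28 CPM in spleen), Junb (-1.44) and Egr3 (-2.09) were lower.

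Adipocyte calls in sham animals rest on single libraries. With all 6 libraries 6 of 15 members were higher and 1 lower in thymus at 2-fold (median 2.62), but for 14 of 15 the thymus and spleen values overlapped. Adipoq, the hormone adiponectin, had 27.9, 144 and 2.53 CPM in thymus, against 10.9, 0 and 0.0788 CPM in spleen, and Cidea, a lipid droplet protein of brown fat, 1.38, 111 and 0.622 CPM in thymus, against 2.33, 1.97 and 1.65 CPM in spleen. Thymus 15 was the highest thymus library for 14 of 15 members and spleen 14 the highest spleen library for 14 of 15. Without thymus 15, 0 members were higher and 4 lower at 2-fold. The count of higher calls was also 0 without spleen 15 or without spleen 17. It was 6 without spleen 14, 8 without thymus 14 and 9 without thymus 17. Without both thymus 15 and spleen 14, 6 were higher and 4 lower of the 12 still tested. In SAM animals, which share no library with these, the list median was 4.54, and 15 of 15 members had the sign of the fit with all 6 sham libraries. Fabp4, a fatty acid carrier also made by endothelium and macrophages, had 55.2, 483 and 20.7 CPM in thymus, against 131, 96.5 and 108 CPM in spleen, a log2 fold change of 0.74 (adjusted p = 0.516), which was -1.52 (edgeR adjusted p = 0.00585) without thymus 15. Summed over the list, the level was 473, 2187 and 145 CPM in thymus and 742, 616 and 476 CPM in spleen. Mitochondrially encoded genes moved with the same library: 0 of 12 were called with all libraries, and 10 of 12 were called lower, none at 2-fold, without thymus 15. The part of that library in the values of other genes was not tested. Without thymus 15 edgeR called 10157 genes, against 10218.

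Parathyroid and thyroid genes were called higher at 2-fold for 2 of 5 tested members, Calca (above) and Chga, a secretory granule protein (0.763, 13 and 0.478 CPM in thymus, against 0.0706, 0.0519 and 0.0788 CPM in spleen), with 3 spleen counts and a ratio of 71 (95% counting interval 24 to 346). Without thymus 15, the library with 881 Pth counts, the ratio was 9.55 (2.93 to 49.3). Chga fell short of the threshold without spleen 15 or spleen 17 (adjusted p = 0.0595 and 0.0506). Gcm2, the parathyroid regulator, had 2, 16 and 0 counts in thymus and 0 in spleen, and Tg, the thyroid hormone precursor, overlapped (1.05, 1.46 and 1.43 CPM in thymus, against 1.06, 1.82 and 1.89 CPM in spleen).

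Further genes were named by the size of their difference and belong to no list. Syt6, a synaptotagmin, had 307, 255 and 280.4 CPM in thymus, against 0 CPM in all 3 spleen libraries (at least 1395-fold higher in thymus). The gap junction gene Gjb6 and the serpin gene Serpinb5, both of stratified epithelium, were at least 159- and 139-fold higher, and Tctex1d1, a dynein light chain family gene, at least 105-fold. On the spleen side, Nr5a1, the steroidogenic factor that also patterns splenic vessels in mouse, had 0, 0.0503 and 0.0956 CPM in thymus, against 36.7, 30.7 and 28.7 CPM in spleen, a ratio of spleen to thymus of 659 (95% counting interval 225 to 3198) from 3 thymus counts, or 435 (149 to 2112) without thymus 14 and 1307 (234 to 51667) without thymus 17. Clec4m, a C-type lectin, had 0.0477, 0.101 and 0.717 CPM in thymus, against 147, 162 and 155 CPM in spleen, a log2 fold change of -9.02 ± 0.38 (SE, edgeR adjusted p = 7.46e-07), or -10.89 without thymus 17, which held 15 of its 18 thymus counts. Defb24, a beta-defensin, had 0, 0.101 and 0 CPM in thymus, against 27.2, 26.2 and 19.8 CPM in spleen, a spleen to thymus ratio of 764 (95% counting interval 211 to 6315) from 2 thymus counts, both in thymus 15. Without thymus 15 Defb24 was at least 170.2-fold lower, and the ratio was 504 (139 to 4171) without thymus 14 and 505 (139.6 to 4177) without thymus 17. The globin entry Hbq1b was at 0 in thymus (at least 71.3-fold lower), and the beta-globin entries LOC100134871, LOC103694855 and LOC103694857 were at -9.59, -9.11 and -8.7, and without thymus 15 at -10.35, -10.44 and -9.75. LOC100134871 was at -9.0 without thymus 17. AABR07060872.1 (-2.74) and AABR07042633.1 (12.6 CPM on average in spleen) carry no annotation here.

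The same contrast in SAM-exposed rats shares no library with the sham one. In SAM animals 10599 of 15114 genes (70.1%) were called, and at 2-fold 2151 (14.2%) were higher and 2961 (19.6%) lower in thymus, 33.8% in all. Of the 5235 genes called at 2-fold in sham animals, 4991 were tested in SAM animals, 4982 of those had the same sign, and 4469 were called at 2-fold in the same direction. These are 85.4% of the sham calls and 87.4% of the SAM calls. Rag1 was at 12.75 in SAM animals and 13.59 in sham animals, and Cd79b at -5.34 in SAM animals and -5.36 in sham animals. The difference between the contrasts, tested as an interaction over the 12 libraries, passed for 0 of 15781 genes in edgeR (0%), with 649 at an unadjusted p under 0.05 and a lowest adjusted p of 0.106. DESeq2 called 3, Hyal1, Emp2 and Etv5.

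**Figure D5:**
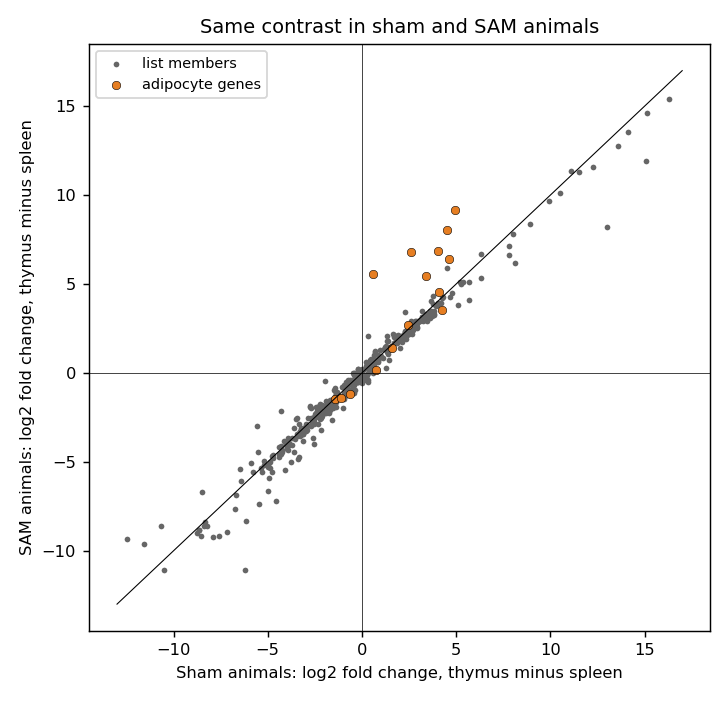
Fitted log2 fold change, thymus minus spleen, in SAM animals (vertical) against sham animals (horizontal) for list members tested in both, with adipocyte genes in orange and the line of equal values. Most points lie near the line, and several adipocyte genes, whose sham values rest on single libraries, lie above it.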

How the data were processed

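Per the labels' protocols, total RNA came from RNeasy columns and libraries from the stranded TruSeq mRNA kit. STAR 2.2.1 and build rn6 are named in the submitters' processing notes. How reads were counted, with which annotation and strand setting, is not given in the sources used here. Values of overlapping genes and of gene copies (globin, immunoglobulin, RT1) are therefore uncertain. The authors deposited whole-number counts per gene for 32883 genes, not normalized. From these, edgeR 4.0.16 (R 4.3.3) with filterByExpr, TMM and the quasi-likelihood test compared the 6 libraries, with no covariate. Log2 fold changes carry SE. DESeq2 1.42.0 was an alternative. In each pair of replicates the chi-square over its degrees of freedom was 6.10 to 45.3, above the 1 of sampling noise, so none was taken for a copy. Beyond the animal numbers nothing says that libraries came from separate preparations, so p-values measure the spread between these libraries, which may be partly technical. Ratios and floors (3 counts per library) cover counting error only. Those without 1 library were added after seeing the data. Some listed genes count in their lists but are not reported here by name. Of 492 listed symbols, 475 had a row, and the others were not analysed here. Genes named outside the lists are the 12 with the largest fold per direction at 10 CPM or more and the 8 with the largest CPM difference at 4-fold or more. Members and lists were chosen with earlier results of these data known. The fit was tested on simulated data in which each gene had its mean over the 6 sham libraries. Changes of 1.5-, 2- and 4-fold, up or down at random, were set in 61, 64 and 75 genes, and 15096 genes were run. The fit recovered 31.1% of the 1.5-fold, 68.8% of the 2-fold and 96% of the 4-fold changes, and 16 calls (10.6%) were false. In the data 66.6% of genes were called. A simulation with so few changed genes cannot give the recovery or the false calls of this contrast.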

Additional observations from a re-analysis of the deposited data

Results flagged for a closer look

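For 3 genes the difference between thymus and spleen was itself different between SAM and sham animals by DESeq2's interaction test over 12 libraries. Hyal1, a hyaluronan-degrading enzyme, had an interaction of -1.43 on the log2 scale (SAM minus sham, DESeq2 adjusted p = 3.86e-06, edgeR adjusted p = 0.106). It had 4.51, 4.50 and 4.22 CPM in SAM thymus and 15.9, 17.5 and 14.1 CPM in SAM spleen, against 11.3, 11.8 and 9.88 CPM in sham thymus and 14.3, 16.7 and 12.8 CPM in sham spleen. Emp2, a membrane protein of epithelium, was at -0.85 (DESeq2 adjusted p = 0.00302, edgeR adjusted p = 0.370), and Etv5, an ETS factor, at -1.31 (DESeq2 adjusted p = 0.00451, edgeR adjusted p = 0.521). edgeR called none of them.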

How the results depend on the processing

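The number of genes called stayed within 1.5 times of 10218 under every setting tried, from 9207 without spleen 15 to 10969 with all 12 thymus and spleen libraries in 1 fit. Of 465 named or listed genes, 402 were called, 378 of these kept the call in every setting, 24 lost it in at least 1, and 0 changed direction. With the animal number as a replicate block 10117 genes were called. Deviations of thymus and spleen libraries with the same number correlated at 0.194, -0.0082 and 0.188 for animals 14, 15 and 17. Thymus 14 and thymus 17 correlated best with the spleen of their own number, and thymus 15 with spleen 14 (0.0931). With 3 libraries per tissue these correlations cannot decide whether equal numbers mark the same rat. The main fit did not take the numbers as pairs. Members higher at 2-fold numbered 2 of the early thymocyte list with library totals alone. For effector T cells the number was 1 with DESeq2 size factors, library totals, the scale without globin, immunoglobulin and mitochondrial genes, no low-count filter, DESeq2, both libraries left out (thymus 15 and spleen 14, chosen after seeing the data), and 0 to 1 without 1 library. The erythroid list had 1 with library totals and with both left out, and 0 to 1 without 1 library. The dendritic list had 2 with DESeq2 size factors, library totals, the scale without those genes and DESeq2, and 1 to 2 without 1 library. Adipocyte genes had 3 higher with DESeq2, 2 lower with the replicate block, 4 lower with both left out, and without 1 library 0 to 9 higher and 1 to 4 lower. The parathyroid list had 1 to 3 higher without 1 library, and the interaction 3 calls with DESeq2. Genes that were not called changed sign as follows: Mcm3 (0.078), Bach2 (0.11) and Il7 (0.019) with library totals, Cebpe (0.026), Cidea (-0.82) and Fabp4 (-1.39) with both left out, Fabp4 (-0.53) with the replicate block, and, without 1 library, Fyn (range -0.014 to 0.12), Bach2 (-0.24 to 0.055), Ccl19 (-0.20 to 0.37), Cidea (-0.94 to 4.82) and Fabp4 (-1.52 to 1.27). For these the cause was not tested. Genes near 0 in a tissue rest on few counts, which limits their folds.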

Other observations

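Libraries of the same tissue differed along recurrent gene groups. Among the 3 spleens, animal 14 was the highest for 32 of 33 cell cycle genes, 25 of 25 erythroid genes, 8 of 8 germinal centre genes, 10 of 11 plasma cell genes, 15 of 17 neutrophil genes and 10 of 11 smooth muscle genes. Mki67 shows this with 102, 61.2 and 42.6 CPM, Ahsp with 74.6, 35.7 and 8.27 CPM and Mpo with 7.27, 2.13 and 2.13 CPM in spleen 14, 15 and 17. B cell identity genes did not share it, with 0 of 22 highest in spleen 14, and 20 of 22 T cell receptor genes were highest in spleen 17.

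Among the 3 thymuses, animal 17 was the highest for 20 of 23 dendritic cell and MHC class II genes, 19 of 22 B cell genes, 17 of 22 T cell receptor genes, 8 of 11 maturation and exit genes and 7 of 8 regulatory T cell genes. Ccl22 had 74.8, 81.1 and 133 CPM in thymus 14, 15 and 17, and Ccl21 had 290.0, 345 and 524 and Cd79b 14.1, 20.4 and 24.8 CPM. Cell cycle genes were highest in thymus 14 for 27 of 33 members and recombination genes for 8 of 12. Endothelial genes were highest in thymus 15 for 10 of 11. These counts order single libraries, genes of a list vary together, and no test was made of them.

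Thymus 15 also held 72 counts of Mb, myoglobin, against 0 in the other 5 sham libraries, beside its Ucp1 and Pth counts.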
